A study of Mus musculus with 6 samples.

Results

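The regions described here are p300 peaks that lie close together along the chromosomes of B16 cells, a mouse melanoma line. A p300 peak was a member when it belonged to a stitched region of at least 3 p300 peaks, with no gap over 12500 bp between neighbours. Before stitching, 165 of the 6512 p300 peaks on chromosomes 1 to 19, X and Y were left out because both of their edges lay within 50 bp of those of 1 H3K4me3 peak. Of the 6347 peaks kept, 387 (6.10%, exact 95% binomial interval 5.52 to 6.71) fell into 115 clusters, 4900 stood alone and 1060 formed 530 pairs. Because their position chose them, the number and spacing of clustered peaks are a description.

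The series studies thymine DNA glycosylase (Tdg) in p53-deficient cancer and profiles B16 chromatin by CUT&Tag, in which an antibody guides a transposase to cut and tag the DNA around its target. The labels describe 6 libraries made with 3 antibodies. Used here were the peak lists of 1 p300 library and 1 H3K4me3 library, both from wild-type cells cultured without a listed treatment. The 4 H3K9me3 libraries, some of them of cells without Tdg or Trp53, were not analysed here, and wild-type cells are the only genotype below. With 1 library per antibody there is no replicate check, and intervals on shares cover counting error only. The intervals treat each peak or gene as separate, although peaks enter clusters in groups of at least 3, so they can be too narrow.

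p300, encoded by Ep300, is a histone acetyltransferase that transcription factors recruit to enhancers and promoters, where it acetylates histones and other proteins. Stretches with several neighbouring p300 or acetylation sites are often found around highly transcribed genes and genes that mark a cell's identity. Trimethylation of lysine 4 of histone H3 (H3K4me3) marks the starts of active genes. In pigment cells, Sox10, Pax3 and Mitf encode transcription factors of the lineage, and Dct and Gpnmb encode proteins of the melanosome, the organelle that makes and stores pigment.

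Clustered p300 peaks covered 109 promoter windows of 95 genes in 57 clusters, each window running from 250 bp before to 50 bp after a start annotated by RefSeq on GRCm38.p6. Shown are 7 of these windows, because their genes are described below and because together they hold a match to each of several motifs searched. Letters run 5′ to 3′ along the gene, and capitals mark matches to the motifs, searched on both strands. The motifs were TGANTCA (AP-1), TGACGTCA (the cyclic AMP response element), CACGTG and CATGTG (E-boxes), GGAATG (TEAD), CCGGAAG (ETS), GGGCGG (SP and KLF factors), CCAAT (NFY) and the p53 response element. In the Cdkn1a window the capitals cover both copies of the p53 element and the letters between them.
Cdkn1a, chr17:29090729-29091028, plus strand: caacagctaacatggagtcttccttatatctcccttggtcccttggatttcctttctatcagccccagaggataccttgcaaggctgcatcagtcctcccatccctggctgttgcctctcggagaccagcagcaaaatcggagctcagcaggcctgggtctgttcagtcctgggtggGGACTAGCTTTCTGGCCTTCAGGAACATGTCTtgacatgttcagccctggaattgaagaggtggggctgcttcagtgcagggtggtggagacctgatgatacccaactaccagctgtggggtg
Bax, chr7:45466849-45467148, minus strand: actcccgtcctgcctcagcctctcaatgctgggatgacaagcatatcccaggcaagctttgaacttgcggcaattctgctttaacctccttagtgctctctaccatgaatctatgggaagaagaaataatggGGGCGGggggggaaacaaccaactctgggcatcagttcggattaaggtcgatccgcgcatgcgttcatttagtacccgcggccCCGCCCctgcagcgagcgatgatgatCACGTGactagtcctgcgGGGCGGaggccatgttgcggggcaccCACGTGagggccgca
Pcna, chr2:132253131-132253430, minus strand: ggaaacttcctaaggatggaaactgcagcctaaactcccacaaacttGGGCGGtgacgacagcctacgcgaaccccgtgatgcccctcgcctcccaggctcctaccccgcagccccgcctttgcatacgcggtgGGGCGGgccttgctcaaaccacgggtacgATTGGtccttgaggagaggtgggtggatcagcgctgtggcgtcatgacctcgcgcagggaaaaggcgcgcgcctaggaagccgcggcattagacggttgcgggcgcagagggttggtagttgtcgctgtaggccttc
Gpnmb, chr6:49036268-49036567, plus strand: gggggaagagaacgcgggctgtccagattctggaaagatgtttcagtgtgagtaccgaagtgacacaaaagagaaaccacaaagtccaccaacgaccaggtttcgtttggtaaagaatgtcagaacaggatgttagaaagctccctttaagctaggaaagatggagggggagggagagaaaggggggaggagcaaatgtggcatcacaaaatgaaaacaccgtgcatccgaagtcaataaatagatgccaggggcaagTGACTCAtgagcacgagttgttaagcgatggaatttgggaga
Dct, chr14:118052197-118052496, minus strand: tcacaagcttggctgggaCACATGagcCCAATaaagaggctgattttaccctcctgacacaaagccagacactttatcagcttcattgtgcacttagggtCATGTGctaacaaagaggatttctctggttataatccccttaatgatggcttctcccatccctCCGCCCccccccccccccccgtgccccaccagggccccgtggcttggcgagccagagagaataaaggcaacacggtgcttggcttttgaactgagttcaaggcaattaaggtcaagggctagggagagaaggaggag
Per1, chr11:69098699-69098998, plus strand: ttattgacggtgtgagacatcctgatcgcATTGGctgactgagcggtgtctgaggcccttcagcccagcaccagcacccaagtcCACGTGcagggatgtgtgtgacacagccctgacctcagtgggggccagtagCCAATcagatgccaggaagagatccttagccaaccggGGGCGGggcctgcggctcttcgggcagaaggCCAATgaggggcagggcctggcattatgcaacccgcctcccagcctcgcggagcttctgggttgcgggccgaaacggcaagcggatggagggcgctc
Eef2, chr10:81176381-81176680, plus strand: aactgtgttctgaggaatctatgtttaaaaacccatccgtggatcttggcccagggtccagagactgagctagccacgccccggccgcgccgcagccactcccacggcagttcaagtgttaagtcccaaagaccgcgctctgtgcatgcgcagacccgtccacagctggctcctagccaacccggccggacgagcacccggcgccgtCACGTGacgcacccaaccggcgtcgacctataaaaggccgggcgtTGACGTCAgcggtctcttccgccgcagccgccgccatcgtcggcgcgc

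The p53 response element in the Cdkn1a window shown began 73 bp before the annotated start of that window. Its centre lay 69 bp from the summit of the p300 peak there. It was the only such match in the 109 windows on clustered peaks, against 0 of 2711 windows on unclustered peaks and 24 of all 32817 windows (0.0731%). Another Cdkn1a window on a clustered peak, at chr17:29093519-29093818, held GGGCGG matches. The Bax window held 2 CACGTG sites, the Dct window held 2 CATGTG sites, one read on each strand, and the Gpnmb window held an AP-1 site 9 bp after the start. Per1, a circadian clock gene at chr11:69095108-69109965, had CACGTG 166 bp before the annotated start that its window was drawn around. That start lies inside the gene. Eef2, which encodes an elongation factor of translation, had the cyclic AMP response element 3 bp after its start.

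Most motif shares were alike in windows on clustered and on unclustered p300 peaks. GGGCGG stood in 69.7% and 71.2%, against 35.6% of all windows. CACGTG stood in 15.6% (exact interval 9.36 to 23.8) and 14.2%, against 7.15% of all. CCAAT stood in 44.0% and 43.7%, against 37.4% of all. TGACGTCA stood in 4.59% and 4.13%, against 1.79% of all, and TGANTCA in 7.34% (3.22 to 14.0) and 4.87%, against 7.81% of all. CCGGAAG stood in 13.8% (7.91 to 21.7) and 18.7%, against 8.86% of all, and CATGTG in 9.17% (4.49 to 16.2) and 7.60%, against 14.2% of all. GGAATG was the least alike, with 5.50% (2.05 to 11.6) against 11.1% on unclustered peaks and 14.7% of all. Base composition differed between these sets as well: the median GC content was 61.3% on clustered peaks, 63% on unclustered peaks and 52.7% over all windows, and the part of composition in the motif shares was not tested. Windows of a gene or of neighbouring genes can overlap, so the same site can count more than once. The TGACGTCA site at Zfand2b and the CCAAT sites between Atg9a and Ankzf1 did so, while the intervals treat windows as separate. A motif match is a run of letters and does not show binding.

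Most clusters were small. Of the 115, 85 held 3 peaks, 22 held 4, 4 held 5 and 4 held 6. A cluster spanned a median of 16427 bp (quartiles 12819.5 and 22838.5, range 4459 to 40767), and its peaks covered a median of 15.9% of that span. The 272 gaps inside clusters had a median of 6477 bp. The shortest cluster was at Per1 and the longest was the one near Eapp.

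**Figure D1:**
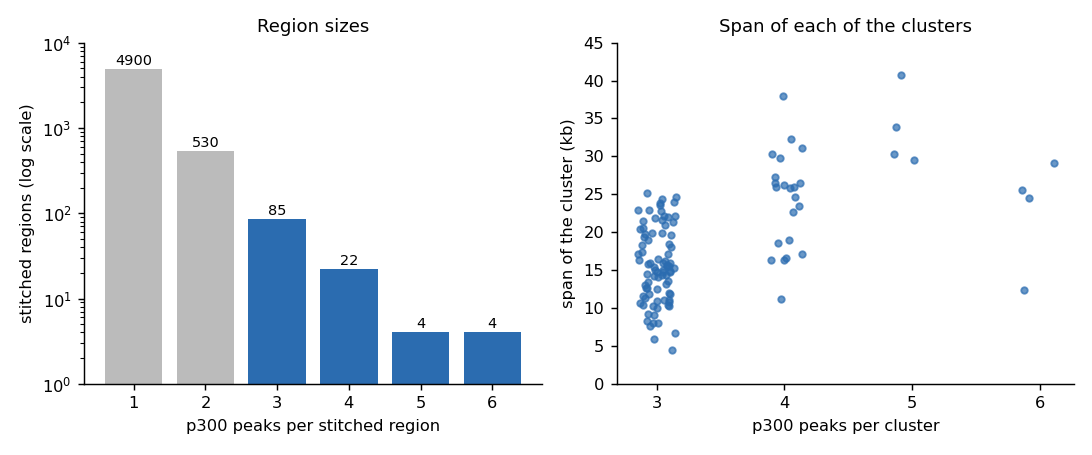
Left, number of stitched regions by the number of p300 peaks they hold (log scale), with regions of 1 or 2 peaks in grey and clusters in blue. Right, span in kb of each of the 115 clusters by its number of peaks, with points spread sideways for clarity. Most clusters hold 3 peaks, and clusters of 3 overlap with larger ones in span.

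The widest gaps just inside the limit were 12461 bp at Mafg, 12434 bp at Extl3 and 12413 bp near Eapp. The narrowest just outside it were 12548 bp at Snx15 and Arl2, 12604 bp near Clhc1 and 12621 bp at Ppt2 and Prrt1. For the edges shared with H3K4me3 peaks, the largest difference left out was 50 bp and the smallest kept was 51 bp. In all, 17 members lay within 100 bp of an H3K4me3 peak at both edges.

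The clusters were spread unevenly over chromosomes. Chromosome 11 had 17 clusters, which held 9.78% of its kept p300 peaks, and on chromosome 3 the 10 clusters held 10.3%. Chromosomes 16, X and Y had none, of 188, 63 and 3 kept peaks. Exact intervals, which treat peaks as separate although they enter clusters in groups, run up to 1.94%, 5.69% and 70.8%. In all, 10 pairs of neighbouring clusters lay within 100 kb of each other. The closest were a pair at 5S ribosomal RNA genes (13402 bp apart), a pair at histone genes on chromosome 3 (15389 bp), Erf and Cic (16948 bp), and the clusters at Sox10 and near Pick1 (18415 bp).

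Clustered p300 peaks had more reads at their summits than other p300 peaks, and lower fold enrichments. Fold enrichment and −log10 q are the authors' values for each peak, and reads at the summit and in its local background were recovered from the authors' fold and −log10 p. The median summit held 66 reads in clusters, 48 in pairs and 36 in peaks standing alone. The median background was 14.2, 8.65 and 5.33 reads, and the median fold 4.39, 5.10 and 5.93. Median −log10 q was 17.8, 16.2 and 15.0, and median width 757, 678 and 626 bp. So clustered summits were higher in reads than those of lone peaks, but background differed by a larger factor than summit reads. The quartile ranges of clustered and lone peaks overlapped in all of these measures except background (9.28 to 23.4 reads in clusters, 3.82 to 7.80 alone). Members were chosen for having other p300 peaks close by, and the part of those neighbours in the background and fold was not tested.

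**Figure D2:**
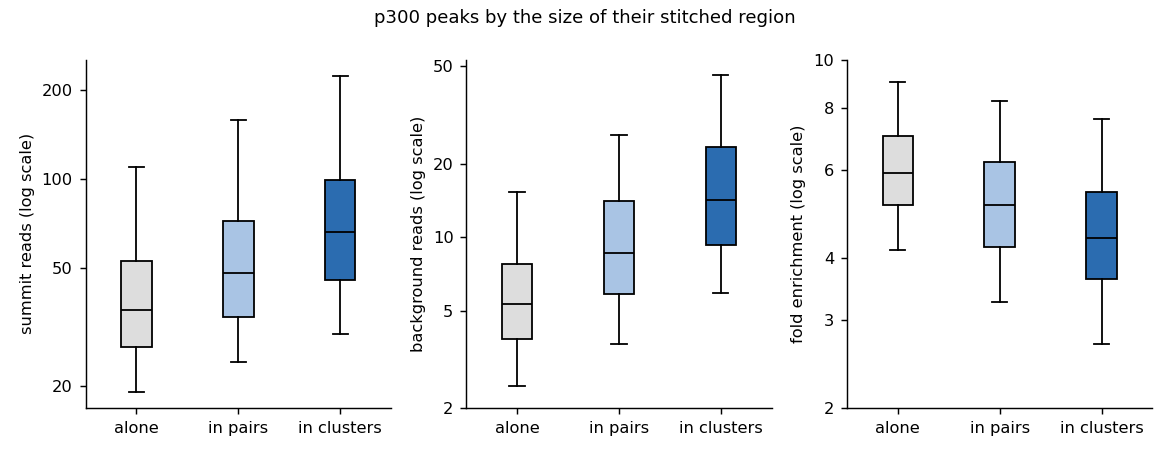
Reads at the summit, background reads and the authors' fold enrichment (all log scale) for p300 peaks standing alone, in pairs and in clusters. Boxes show quartiles and the median and whiskers the 5th and 95th percentiles of peaks. Medians of summit and background reads go up from 36 and 5.33 (alone) to 66 and 14.2 (clusters), while the median fold goes down from 5.93 to 4.39.

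The H3K4me3 library showed the same contrast at these places. For the H3K4me3 peaks overlapped by clustered p300 peaks the median background was 29.4 reads, against 17.1 for those overlapped by unclustered p300 peaks. Their median fold was 4.84 against 6.70. The part of neighbouring peaks in these H3K4me3 values was not tested. The p300 values were alike with and without H3K4me3: the 319 clustered peaks on H3K4me3 and the 68 off it had the same median fold (4.39), and medians of 68 and 59.5 summit reads. Within a cluster the strongest summit had a median of 2.17 times the reads of the weakest (quartiles 1.61 and 3.44, highest 10.6).

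Clustered peaks were less often at genes than other p300 peaks. Of the 387, 110 (28.4%, 24.0 to 33.2) lay within 1 kb of either end of a protein-coding gene, against 38.8% of unclustered and 38.1% of all kept peaks. Of the same peaks, 93 (24.0%, 19.9 to 28.6) touched a promoter window, against 33.2% and 32.6%. A total of 204 (52.7%, 47.6 to 57.8) overlapped a protein-coding gene, against 67.9% and 67%. H3K4me3 overlapped 319 (82.4%, 78.3 to 86.1), against 85.3% and 85.1%, a share close to the background. Peaks in pairs resembled clustered peaks at gene ends (29.4%) and resembled lone peaks inside genes (65.7% and 68.4%).

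**Figure D3:**
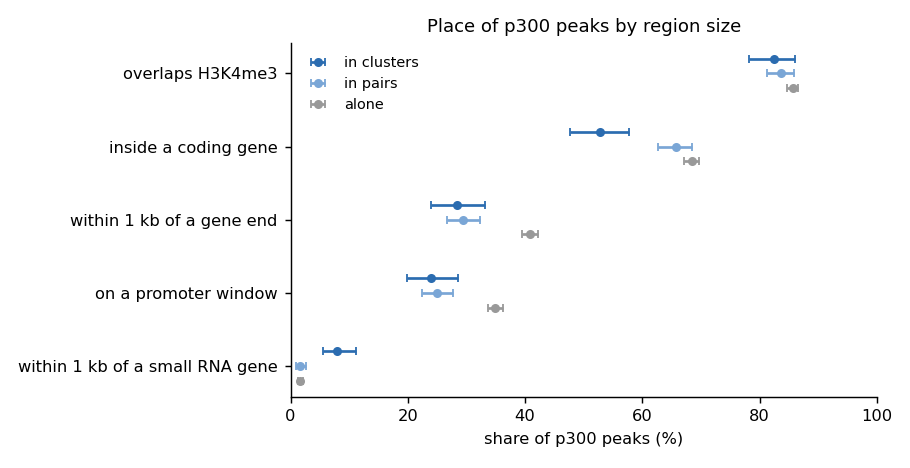
Share of p300 peaks (%) that overlap H3K4me3, lie inside a coding gene, lie within 1 kb of a gene end, touch a promoter window or lie within 1 kb of a small RNA gene, by region size. Points are shares and bars exact 95% binomial intervals over peaks. Clustered peaks sit lower for coding genes (52.7%) and higher for small RNA genes (8.01%).

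Most clusters as a whole nevertheless reached a gene. Of the 115, 88 (76.5%) overlapped at least 1 protein-coding gene and 38 overlapped 2 or more. Another 21 had a gene within 50 kb, and 6 had none. A peak at a gene end was present in 68 clusters, but the peak of highest −log10 q was at a gene end in only 34 (29.6%, 21.4 to 38.8). Every peak lay on H3K4me3 in 65 clusters, 1 peak was off it in 35, and 2 or more in 15. Only the cluster inside Gask1b had no peak on H3K4me3, with folds of 3.34, 4.30 and 3.90.

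Genes under clusters usually carried H3K4me3. Clusters overlapped 148 of 21887 protein-coding genes (0.676%) and had 452 within 50 kb (2.07%). An H3K4me3 peak lay within 1 kb of an end of 138 of the 148 overlapped genes (93.2%, 87.9 to 96.7) and of 50.5% of all genes. For like criteria, the share was 92.4% (86.5 to 96.3) of the 132 genes overlapped by a clustered p300 peak against 84.4% of the 3752 overlapped by any kept p300 peak, and 78.3% (74.2 to 82.0) of the 452 genes within 50 kb of a cluster against 71.8% of those within 50 kb of any kept p300 peak. The 148 overlapped genes were short, with a median of 9661 bp against 17169 bp over all genes. A clustered peak had a median of 3 protein-coding genes and 7 H3K4me3 peaks within 50 kb, against 2 and 4 for unclustered peaks. Since members were chosen for having other p300 peaks close by, and 85.1% of kept p300 peaks overlap H3K4me3, the higher H3K4me3 count is a description of the choice and not a separate result.

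Pigment genes, which mark the labelled melanoma line, had p300 nearby more often than all genes taken as a whole, and 4 of them had clusters. Of the 37 genes in the lists of pigment regulators and melanosome genes, 27 had a kept p300 peak within 50 kb. By list this was 64.7% of regulators and 80% of melanosome genes, against 43.8% of all protein-coding genes. Marker lists of other cell types had 46.7% (lymphocyte), 46.2% (myeloid), 46.2% (neural), 45.5% (muscle), 35.7% (stromal), 16.7% (epithelial) and 8.33% (hepatocyte). The pigment shares were not the highest: adhesion and cytoskeleton genes had 82.8%, Mapk genes 81.5%, MHC class I genes 80% and p53 targets 75.8%. Gpnmb, Dct, Sox10 and Pax3 had a cluster within 50 kb. That is 2 of 17 regulators (11.8%, 1.46 to 36.4) and 2 of 20 melanosome genes (10%, 1.23 to 31.7), against 2.07% of all genes, which both intervals include. In 8 (Mlph, Tyrp1, Mc1r, Myo5a, Pmel, Slc45a2, Tfeb and Mlana) the largest region was a pair. In 15 it was a lone peak: Mitf, Sox5, Zeb2, Oca2, Trpm1, Rab38, Cdh1, Rab27a, Rab32, Irf4, Tfap2a, Ednrb, Hps1, Tfe3 and Gpr143. The other 10 had none: Tyr, Kit, Kitl, Lef1, Sox9, Snai2, Tfap2b, Slc24a5, Cdh3 and Bloc1s1.

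Gpnmb, which encodes a melanosome glycoprotein, had the second largest summed −log10 q of any cluster (483). Its 3 peaks at chr6:49020977-49037403 had folds of 3.33, 8.84 and 5.92 and summits of 57, 561 and 380 reads. The highest was upstream of the gene and the third covered its annotated start, shown above with its AP-1 match. Dct encodes dopachrome tautomerase, an enzyme of melanin synthesis. Its 3 peaks at chr14:118051773-118070748 had folds of 4.97, 3.53 and 5.60 and summits of 201, 126 and 19 reads. The first covered the start of Dct, and only the last, the weakest in reads, was off H3K4me3.

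Sox10 lay inside a cluster of 3 peaks at chr15:79152202-79176645 with folds of 3.07, 3.45 and 3.83. A second cluster of 4 peaks began 18415 bp further on, near Pick1, with folds of 3.55, 4.80, 2.54 and 3.68 and a highest summit of 246 reads. Both clusters thus had folds at or below the clustered median except for 1 peak. The 3 peaks of the Pax3 cluster, 31658 bp outside the gene, had folds of 7.20, 3.41 and 5.08, all on H3K4me3.

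Of the p53 targets, the longest list, 4 of 33 (12.1%, 3.40 to 28.2) had a cluster within 50 kb, against 2.07% of all genes. This was the largest count of any list but not the largest share, which cell cycle genes had. Among genes with any p300 peak within 50 kb the shares were 16% of 25 p53 targets and 4.71% of 9597 genes. No interval was computed on this base, so a difference from 4.71% was not shown. Cdkn1a, the gene of the cyclin-dependent kinase inhibitor p21, sat in a cluster of 5 peaks at chr17:29078379-29107928 that also holds the noncoding gene Trp53cor1. The peaks had folds of 2.75, 3.98, 4.15, 2.50 and 5.35 and summits of 99, 157, 123, 73 and 44 reads. The third covered the p53 element shown above and was the only one of the 5 off H3K4me3. The other Cdkn1a window, further inside the gene, was overlapped by an H3K4me3 peak with a fold of 5.33. The highest fold belonged to the peak with the fewest reads, outside the gene.

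Bax and Bbc3 encode promoters of apoptosis. The cluster at Ftl1 and Bax had folds of 2.25, 5.14 and 3.92 and summits of 178, 421 and 85 reads, and the last peak was at Bax. In the cluster at Ccdc9 and Bbc3, folds were 8.38, 3.99 and 4.81, and the peak at Bbc3 was off H3K4me3. H3K4me3 peaks did lie further inside Bbc3, past the end of the cluster, the strongest at chr7:16312524-16313603 with a fold of 4.38. Pidd1, which encodes a death-domain adaptor, was 7599 bp from a cluster over Pnpla2, Cracr2b, Cd151, Polr2l and Tspan4, with folds of 4.66, 3.78 and 5.83. Mdm2, which encodes the ubiquitin ligase for p53, had a pair of peaks as its largest region, and Trp53, Tdg and Ep300 each had 1 lone kept peak within 50 kb, with folds of 4.56, 5.91 and 3.45.

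Of the 24 cell cycle genes, 3 were near a cluster (exact interval 2.66% to 32.4%), the highest share of any list, against 2.07% of all genes. Among genes with any p300 peak within 50 kb the share was 16.7% of 18 cell cycle genes, against 4.71%, again without an interval. Pcna, the sliding clamp of DNA replication, lay in the cluster with the highest median fold of all (7.03). Its peaks had folds of 9.14, 4.79 and 7.03, the first on the Pcna start shown above. Mcm5 and Aurkb, a helicase subunit and a mitotic kinase, were 15594 and 43101 bp from the clusters at Hmox1 and Per1 and overlapped neither. Ribosomal protein genes had 3 of 32 (9.38%, 1.98 to 25.0, which includes the 2.07% of all genes) near a cluster: Rpl3, Rpl18 and Rplp2, at 179, 228 and 3805 bp.

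Several other lists had 1 or 2 genes near a cluster. Mnt, a repressor that pairs with Max, and Mcl1, an inhibitor of apoptosis, were 2 of 19 survival and Myc network genes. The 3 peaks at Mnt had folds of 2.60, 6.30 and 4.74. Kdm4b and Ehmt2, a demethylase and a methyltransferase of H3K9, were 2 of 19 and lay 48485 and 38476 bp away. Lmna and Lgals3 were 2 of 29 adhesion and cytoskeleton genes. Mafg (1 of 16 AP-1 genes), Vgll4 (1 of 18 Yap and Tead genes), Id3 (1 of 26 Tgfb and Bmp genes), Map2k2 (1 of 27 Mapk genes) and the DNA glycosylase gene Neil2 (1 of 23 excision repair and demethylation genes) completed these. With so few genes, the exact intervals of all the lists in this group start below the 2.07% of all genes (the highest lower bound is 1.30%).

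No cluster lay within 50 kb of any gene in 12 lists. They were p300 and its acetylation partners (0 of 18), MHC class I (0 of 15), interferon and nucleic acid sensing (0 of 24), immediate early genes (0 of 21), dedifferentiated or invasive melanoma (0 of 23) and markers of lymphocytes, myeloid, stromal, epithelial, muscle, neural and liver cells. MHC class I genes had any kept p300 peak within 50 kb in 80% of cases and the p300 list in 66.7%. Zero of 24 allows a share of up to 14.2% and 0 of 11 one of up to 28.5%, so lists of this size cannot tell 0 from the 2.07% of all genes.

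**Figure D4:**
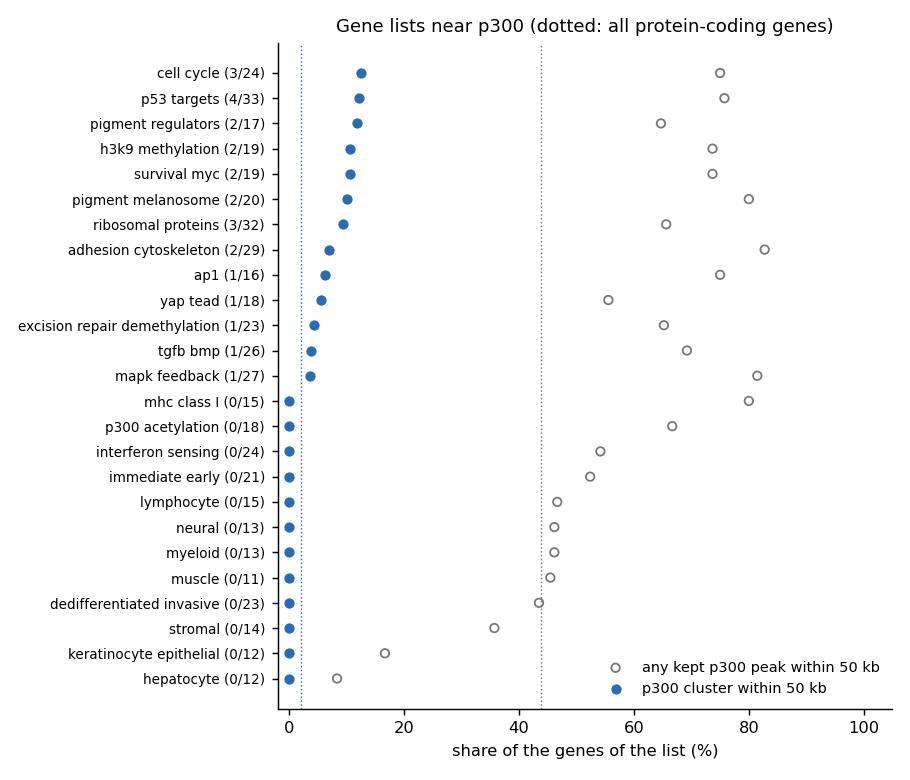
Share of the genes of each list (%) with a p300 cluster (filled) or any kept p300 peak (open) within 50 kb, with the count near a cluster beside each list name. Dotted lines mark all protein-coding genes, 2.07% and 43.8%. Lists with 3 or 4 genes near a cluster are cell cycle, p53 targets and ribosomal proteins, and 12 lists have 0.

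Lmna, which encodes the nuclear lamins A and C, had a cluster of 6 peaks at chr3:88488594-88513118, 5 of them within the gene. The folds were 4.65, 3.68, 3.04, 5.11, 3.61 and 2.55, with summits of 176, 199, 133, 112, 83 and 55 reads. All 6 were on H3K4me3. Another cluster of 6, at the predicted gene Gm40363 on chromosome 6, had folds of at most 2.98 over backgrounds of 18.8 to 51.6 reads. The cluster of 5 at Gstp1 and Gstp2, which encode glutathione transferases, had folds of 4.56, 4.55, 6.29, 3.39 and 6.70. Its strongest summit (228 reads) lay beyond Gstp2 and off H3K4me3.

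Single strong peaks led several clusters. At Sqstm1, which encodes an autophagy receptor, and Mgat4b the summits held 315, 671, 77 and 127 reads, with folds of 3.01, 6.23, 2.46 and 3.95. At Fam53b 1 of 4 peaks had a fold of 9.97 and the others 3.14 to 4.20. At Fem1a and Ticam1 the strongest peak, with 341 reads and a fold of 8.05, was the only one off H3K4me3. Near Sec14l1, the peak within 1 kb of a gene end had the highest fold of any clustered peak (10.4), against 4.41 to 6.34 for the others there. Spen, which encodes a transcriptional repressor, held a cluster with folds of 6.99, 5.97 and 4.46. A second cluster, with folds from 3.16 to 4.69, overlapped only 1 end of Spen and lay mostly outside it, over Gm4123 and B330016D10Rik.

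**Figure D5:**
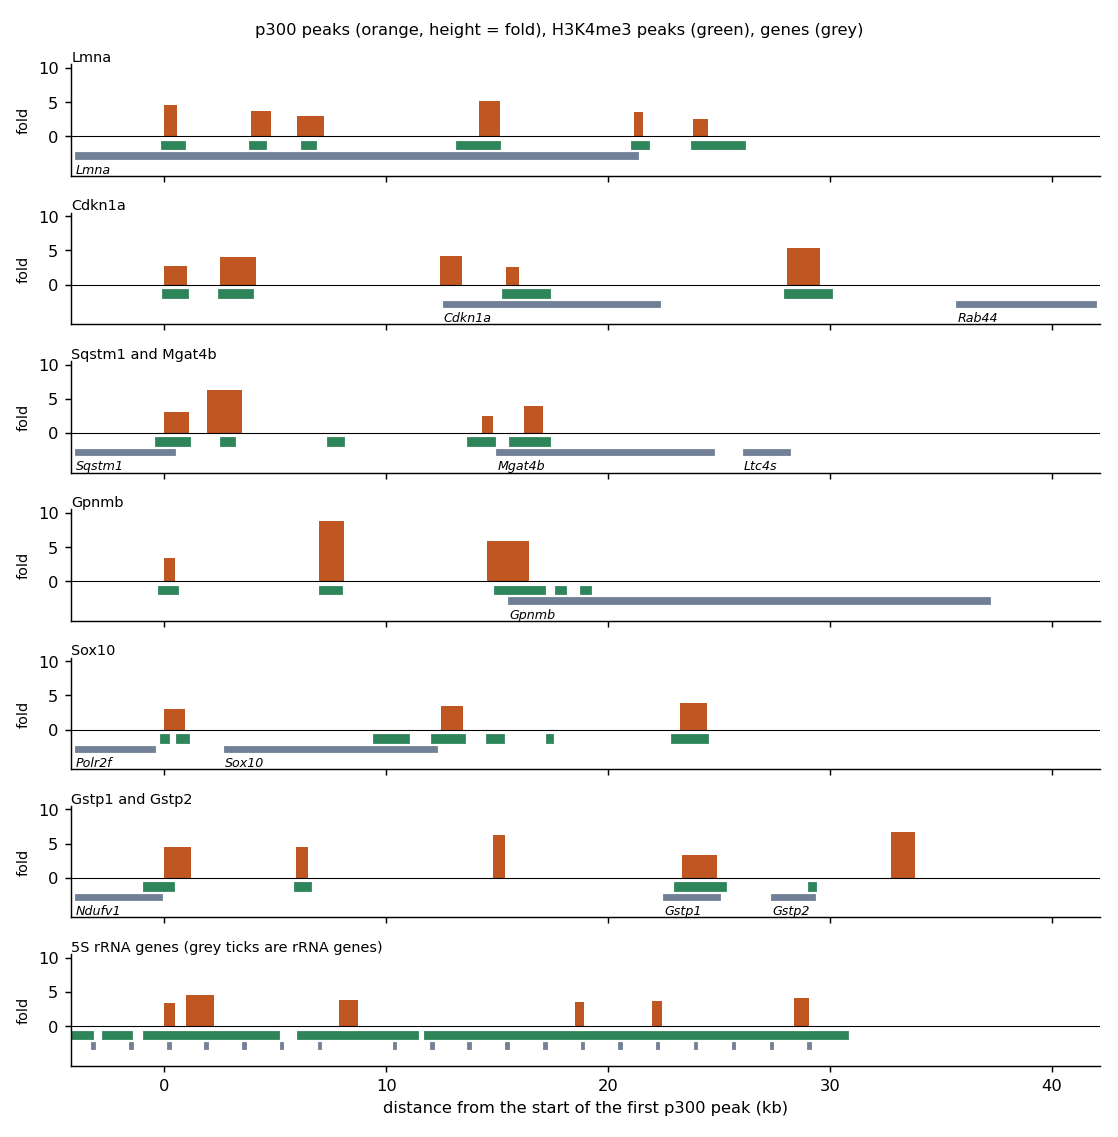
Maps of 7 clusters, each drawn from the start of its first p300 peak (kb). Orange bars are p300 peaks, with height giving the authors' fold, green blocks H3K4me3 peaks and grey blocks genes. Gpnmb and the Sqstm1 cluster have 1 peak well above the rest, while the 6 peaks at the 5S ribosomal RNA genes sit between 3.40 and 4.58 over broad H3K4me3 peaks.

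Among clusters of 4 or more peaks, the one near Lgals3, the galectin-3 gene, had the highest median fold (6.74). Its folds were 6.36, 7.66, 5.26 and 7.12, and 3 of the 4 peaks were off H3K4me3. The next ones by median fold were at Ubb and Trpv2 (5.80), near Sec14l1 (5.39), at the histone genes H2bc21, H3c15, H2ac19, H2ac18 and H3c14 (5.20), at Polm and Aebp1 (5.03) and at Adamtsl4 (4.94), apart from the start of chromosome 9 described below. Outside the 5S genes, the closest spacing among clusters of 4 or more peaks was at Nav1, with 2791 bp of span per peak, followed by the second cluster at Spen (4085 bp), a second set of histone genes, H4c14, H3c13 and H2bc18 (4085.5 bp), and Lmna (4087.5 bp). All 4 peaks at Nav1 and in the second histone cluster were on H3K4me3, and 3 of the 4 in the first.

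Of the 6 clusters without a protein-coding gene within 50 kb, 1 is the start of chromosome 9, described below. A pair of clusters lay 109438 and 58733 bp from Mkln1, in the long noncoding gene 2210408F21Rik. The second of them had 4 peaks with folds of 5.17, 7.76, 4.63 and 4.12 and a summit of 363 reads. The cluster near Gsdmc was 99660 bp from that gene, with folds of 5.19, 3.54 and 4.13, all on H3K4me3. The one near Atp8b1 was 87224 bp away, with folds of 6.71, 5.98 and 4.99, and 1 of its 3 peaks was on H3K4me3.

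Peaks by small RNA genes were more frequent in clusters. Of the 387, 31 (8.01%, 5.51 to 11.2) lay within 1 kb of a ribosomal, transfer, small nuclear or other small RNA gene, against 1.66% of unclustered peaks and 2.05% of all kept peaks. They came from 11 clusters, and 5 of these held 2 or more such peaks, so the peaks are not independent of each other. The 2 clusters of 6 on chromosome 8, near Gas8 and near Rhou, lay over 8 and 17 5S ribosomal RNA genes. In the first, 1 H3K4me3 peak of 19382 bp covered all 6 p300 peaks, whose folds ran from 3.07 to 4.23 with 40 to 49 reads each.

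The clusters in Tex14 and near Eapp had 5 peaks each, and all 10 lay within 1 kb of genes that RefSeq classes as small nuclear RNA. In Tex14 these include Rnu3b1, Rnu3b2, Rnu3b3 and Rnu3b4, genes of the U3 RNA that helps process ribosomal RNA, and the folds ran from 3.64 to 4.30. Near Eapp the folds ran from 3.54 to 5.50, and 3 of 5 peaks were off H3K4me3. The cluster near Pecr, had 3 of 4 peaks by such genes. The sources used here do not say how reads from near-identical gene copies were placed, and their part in these clusters was not tested.

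The cluster at the start of chromosome 9 (chr9:3000170-3038171) stood apart in size. Its 4 peaks were 9690, 15566, 6695 and 1021 bp wide, with folds of 10.3, 7.51, 5.33 and 3.48 and summits of 1282, 1057, 470 and 144 reads. Its summed −log10 q of 1532 was the largest of all clusters, and the nearest protein-coding gene, Alkbh8, was 297060 bp away. All 4 peaks lay on H3K4me3, where the overlapped H3K4me3 peaks had folds of 12.9, 9.48, 6.90 and 4.21. Both lists ranked the 4 peaks in the same order by fold. The p300 peaks covered 86.8% of the span and H3K4me3 peaks 94.3%, against medians of 15.9% and 18.9% over all clusters. The sources used here do not say how reads with several possible places were handled, and no control library was used. The part of read placement in this cluster was not tested. Without this cluster and the 11 by small RNA genes, 103 clusters and 337 peaks remained, of which 82.5% were on H3K4me3 and 30.0% at a gene end.

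A microRNA gene lay in 3 clusters: Mir26b, Mir7653 and Mir6936. Mir26b lies with Ctdsp1, which encodes a phosphatase of RNA polymerase II, in a cluster whose peaks had folds of 5.34, 5.83 and 4.62, and the mature RNA lay 3256 bp from the nearest summit. It is shown because it is a broadly expressed microRNA whose host gene lies in the cluster, with the seed in capitals, from RefSeq on GRCm38.p6 at chr1:74394324-74394344, plus strand.
mmu-miR-26b-5p: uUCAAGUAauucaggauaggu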

How the data were processed

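The data are 2 CUT&Tag peak lists, 1 for p300 and 1 for H3K4me3 in wild-type B16 cells, assigned by sample title. The submitters' processing notes name the mm10 build with deepTools, Picard 2.22.4, Bowtie2 2.2.5 and Trim Galore. Which peak caller was run, and with what control, is not given in the sources here. For each peak the authors deposited a score, a fold enrichment (a ratio of summit to background), a −log10 p and a −log10 q. In the p300 list the deposited score is the whole part of 10 times the −log10 q. These values served to describe or rank peaks inside 1 list. The lists state no read totals. Summit and background reads were solved from the authors' fold and −log10 p, assuming a Poisson tail and a fold of summit plus 1 over background plus 1. Whole reads met −log10 p within 0.002 for 99.97% of p300 and 99.98% of H3K4me3 peaks. The smallest summits held 14 and 15 reads, and weaker sites were not detectable at this depth. The sources used here do not say whether PCR copies were removed.

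From the files, p300 peaks were stitched across gaps of at most 12500 bp, after leaving out near-identical peaks. Peaks sharing at least 1 bp overlapped. Genes were placed by RefSeq's GRCm38.p6 table, which names the same chromosomes as mm10 and gives no strand, so an end is either end of a gene. Promoter sequences came from RefSeq. The table held windows for 120 of the 148 genes overlapped by a cluster. Of 488 listed symbols, 485 matched. Peaks on scaffolds and the mitochondrial chromosome, and the H3K9me3 libraries, were left out. Python 3.11.15, numpy 2.4.6, pandas 2.3.3, SciPy 1.17.1 and matplotlib 3.10.9 were used. Shares carry exact (Clopper-Pearson) 95% intervals. No p-value was computed, since peaks and genes are not replicates. Stitching and read recovery were tested on simulated data and recovered 275 of 275 regions and 500 of 500 summits.

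Clusters were named when among the 12 with most peaks, the 8 of largest summed −log10 q, the 8 of highest median fold or the 5 of closest spacing (both among clusters of at least 4 peaks), the 5 of longest span, or the 5 with most peaks among those with no H3K4me3 or no gene within 50 kb. Also named were Tdg, Trp53, Ep300, Cdkn1a, Mdm2, all pigment genes and up to 4 genes of every other list. The members and lists were chosen with earlier results of these data known. Alternatives changed the gap, the number of peaks, peak strength, the near-identical peaks, gene ends and distances.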

Additional observations from a re-analysis of the deposited data

Results flagged for a closer look

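Outside chromosomes 1 to 19, X and Y the p300 list held 17 peaks, which the stitching did not use and which stand out as signal in data not otherwise analysed. The largest −log10 q of the 17, 1165, belonged to the mitochondrial chromosome, which held 3 peaks with folds of at most 2.55. Another 9 were on 1 unplaced scaffold, where the highest fold was 7.80 and the highest −log10 q was 252. The H3K4me3 list also had 9 peaks on that scaffold, with a highest −log10 q of 1312. No control library was used here to set these beside.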

How the results depend on the processing

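No paired analysis was possible because each antibody has 1 library and the labels give no replicate numbers, and for the same reason no library could be left out in turn. The gap sets the number of clusters: 16 at 5 kb and 298 at 25 kb, with 0.835% and 16.8% of kept peaks and 0.228% and 5.83% of genes within 50 kb. Requiring 4 peaks left 30 clusters, 2.08% of peaks, 0.535% of genes and 22.7% of members at a gene end. Stitching only the 50% of peaks with higher −log10 q left 32 clusters, 3.31% of peaks and 0.516% of genes. The 50% with higher fold left 1 cluster, of 3 peaks at Golim4: 0.0945% of peaks, 0.00457% of genes, 66.7% on H3K4me3 and 33.3% at a gene end. Leaving out peaks at gene ends left 55 clusters, 4.79% of peaks, 0.516% of genes and, by construction, 0 at a gene end. Keeping near-identical peaks gave 127 clusters and 2.28% of genes. Leaving out the clusters by small RNA genes and at the start of chromosome 9, chosen after seeing the data, gave 5.31% of peaks and 1.85% of genes. On H3K4me3 were 73.9% when 50% of the peak had to overlap and 75.2% by summit. Within 2 kb of a gene end were 35.9% of members. Genes within 20 kb and 100 kb were 1.32% and 3.15%. Of the main results, which are counts and shares and so have no direction to reverse, 30 values moved and 16 did not. In all settings tried, clustered peaks had a lower median fold and more summit and background reads than unclustered peaks. Every setting chose members by their neighbouring p300 peaks, so these settings cannot tell that contrast apart from the choice. The difference of median fold, clustered minus unclustered, was -1.42, and it lay between -2.16 and -0.53 under the alternatives. With 1 library each, differences between cultures are unknown.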

Other observations

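Some clusters outside the lists lay at genes that were chosen after their values were seen. Hmox1, which encodes heme oxygenase, had peaks with folds of 8.69, 3.96 and 2.86, the strongest (228 reads) lying outside the gene. At Mt1 and Mt2, the metallothionein genes, folds were 4.68, 3.26 and 3.58, all on H3K4me3. The chaperone genes Hspa1b, Hsp90aa1 and Hsp90ab1 each had a cluster, with folds of 4.20, 5.91 and 5.60, of 4.09, 3.34 and 3.23, and of 5.45, 5.90 and 5.59. The cluster of 4 at Ubb, a polyubiquitin gene, had folds from 4.12 to 6.19. At Ftl1, the ferritin light chain gene, the strongest peak of its cluster held 421 reads. The number of such genes expected near clusters was not tested.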
